A study of Mus musculus with 6 samples.

Results

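The albumin gene family of the mouse was followed in liver tumours with and without Gli1. It was taken as the rows of the deposited gene table named Alb, Afp, Afm and Gc, which are 4 of 43346 rows, and all 4 had enough reads to be tested. RNA was sequenced from 3 Gli1 KO and 3 Gli1 WT liver tumours, all from SULF2-overexpressing mice given the hepatic carcinogen diethylnitrosamine (DEN). SULF2 is an extracellular sulfatase of heparan sulfate. The transgene is named SULF2-TTR in the labels, and as background it is driven in hepatocytes by a transthyretin promoter. Both groups carry it, so no tumour without SULF2 overexpression and no normal liver entered the comparison. Age, sex, strain and the exact Gli1 allele are not given in the sources used here, nor whether each tumour came from its own mouse, so p-values measure the spread between these samples, which may in part be technical. GLI1 is a transcription factor of the Hedgehog pathway, and the study asked what it does in SULF2-driven liver tumours.

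The family arose by gene duplication, and its products are plasma proteins made by hepatocytes. Albumin is the main carrier of fatty acids and many drugs, alpha-fetoprotein (Afp) is its fetal counterpart, afamin (Afm) binds vitamin E and keeps Wnt proteins soluble, and the product of Gc carries vitamin D and scavenges actin. Afp is transcribed at a high level in fetal liver and yolk sac, is shut down after birth with the help of the repressors ZBTB20 and ZHX2, and can return in liver tumours, which makes it a serum marker of hepatocellular carcinoma.

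All members lie on mouse chromosome 5, in coordinates as deposited and read as GRCm38. Gc (ENSMUSG00000035540, 89417511 to 89457898) is on the minus strand and 1003 kb before Alb. Alb (ENSMUSG00000029368, 90460889 to 90476603), Afp (ENSMUSG00000054932, 90490714 to 90508907) and Afm (ENSMUSG00000029369, 90518932 to 90553543) follow each other on the plus strand, with gaps of 14.1 kb between Alb and Afp and 10024 bases between Afp and Afm.

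The promoters are shown because these neighbours share letters near their starts while their levels and spreads in the same tumours were far apart. The 4 sequences are from RefSeq (GRCm38.p6), cover 250 bases before to 50 bases after the RefSeq gene start, and run 5′ to 3′ along the gene. For Alb and Afm the RefSeq start differs from the deposited start given above, and distances below are from the RefSeq start. Capitals mark the letters GTTAATNAT, which the 4 windows share, searched on both strands.
Alb promoter, chr5:90460620-90460919, plus strand: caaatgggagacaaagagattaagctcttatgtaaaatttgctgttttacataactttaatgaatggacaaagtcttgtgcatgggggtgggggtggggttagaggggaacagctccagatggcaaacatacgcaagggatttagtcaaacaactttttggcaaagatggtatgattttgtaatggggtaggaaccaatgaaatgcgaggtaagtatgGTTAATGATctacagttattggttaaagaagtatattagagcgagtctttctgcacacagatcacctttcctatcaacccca
Gc promoter, chr5:89457849-89458148, minus strand: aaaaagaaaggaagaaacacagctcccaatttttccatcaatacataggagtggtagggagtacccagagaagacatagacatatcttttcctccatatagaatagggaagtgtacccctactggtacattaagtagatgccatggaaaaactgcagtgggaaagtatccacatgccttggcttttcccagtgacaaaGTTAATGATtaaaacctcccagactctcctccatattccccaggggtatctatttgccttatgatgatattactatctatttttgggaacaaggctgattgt
Afm promoter, chr5:90518699-90518998, plus strand: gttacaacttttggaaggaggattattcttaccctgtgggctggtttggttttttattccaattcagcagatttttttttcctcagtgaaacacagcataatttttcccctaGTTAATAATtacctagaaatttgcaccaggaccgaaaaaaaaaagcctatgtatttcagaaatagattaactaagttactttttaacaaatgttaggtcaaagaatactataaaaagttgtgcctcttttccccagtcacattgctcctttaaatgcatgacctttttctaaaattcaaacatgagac
Afp promoter, chr5:90490464-90490763, plus strand: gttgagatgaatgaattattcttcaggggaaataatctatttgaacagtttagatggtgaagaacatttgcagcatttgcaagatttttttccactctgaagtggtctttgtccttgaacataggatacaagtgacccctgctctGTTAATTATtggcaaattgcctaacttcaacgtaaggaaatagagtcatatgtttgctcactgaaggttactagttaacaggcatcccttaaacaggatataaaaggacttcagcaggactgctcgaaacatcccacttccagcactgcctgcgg

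Each of the 4 promoters held GTTAATNAT once and on the gene's own strand. The match lay 32 to 24 bases before the start in Alb, 52 to 44 bases before it in Gc, 138 to 130 bases before it in Afm and 105 to 97 bases before it in Afp. Of 32851 mouse promoter windows of the same length, 263 (0.801%) held these letters on either strand. The letters were chosen after the sequences had been read, so the count over the 4 is a description. CCAAT was present on either strand in all 4 and in 37.4% of all promoters, and in Afp it overlapped the shared letters. TATAAA was found in Afm and Afp and in 13.6% of promoters, and TTATGTAA, the letters of a D box bound by DBP and NFIL3, was found in Alb on each strand and in 0.938%. GACCACCCA, the GLI consensus, was in none of the 4 windows and in 0.253% of all promoters.

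Library totals ranged from 76746128 to 132979502 reads in KO and from 75205624 to 95777670 in WT. Gli1 had 4, 3 and 3 reads in KO replicates 1, 2 and 3, against 10, 20 and 7 in WT replicates 1, 2 and 3, in the direction of the labels. KO replicate 1 and WT replicate 3 stood apart from the rest on the first principal component (42.7% of variance), at 65.2 and 80.9, with the other libraries between -67.9 and -6.95, and the fold changes of the members are given with and without them. The 18 hepatocyte markers, among them Hnf4a, Cps1 and Asgr1, all passed the filter on low counts, so the tissue label matched, and their summed level was 11842 to 25287 CPM in KO and 19105 to 28242 CPM in WT. The lowest sum of each genotype was in KO replicate 1 and in WT replicate 3, which were also the tumours highest in Afp, and its part in the results was not tested. CPM here are read counts scaled to the library size after TMM, a scaling that assumes most genes are unchanged.

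The deposited RPKM divide reads by coding length and by a read total that is larger than the library totals above. They put the members in the same order in all 6 tumours: Alb, Gc, Afm and Afp. Alb had the highest RPKM of any gene in each library, at 54656 to 58786 in KO and 52825 to 64761 in WT. Gc stood at rank 17 in each KO tumour and at ranks 13 to 16 in WT, and Afm at ranks 198 to 336 in KO and 313 to 407 in WT. Afp was the member whose place moved most. It was at rank 289 with 128 RPKM in KO replicate 1, and elsewhere between 1511 in WT replicate 3 and 8667 in WT replicate 2.

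Between Gli1 KO and WT tumours no member passed edgeR's quasi-likelihood test at FDR 0.05 after Benjamini-Hochberg adjustment over 18359 genes, and each had an FDR of 1.00. In that comparison 0 genes (0%) were called, while 665 had an unadjusted p under 0.05, none of them a member. DESeq2 called 62 genes, none of them a member, and gave no p-value for Afp, and limma voom called 0. Afp and Afm had positive fold changes and Alb and Gc negative ones, and the median over all genes tested was -0.01 on the log2 scale. In bulk samples fewer cells of a type and less RNA per cell cannot be told apart.

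**Figure D1:**
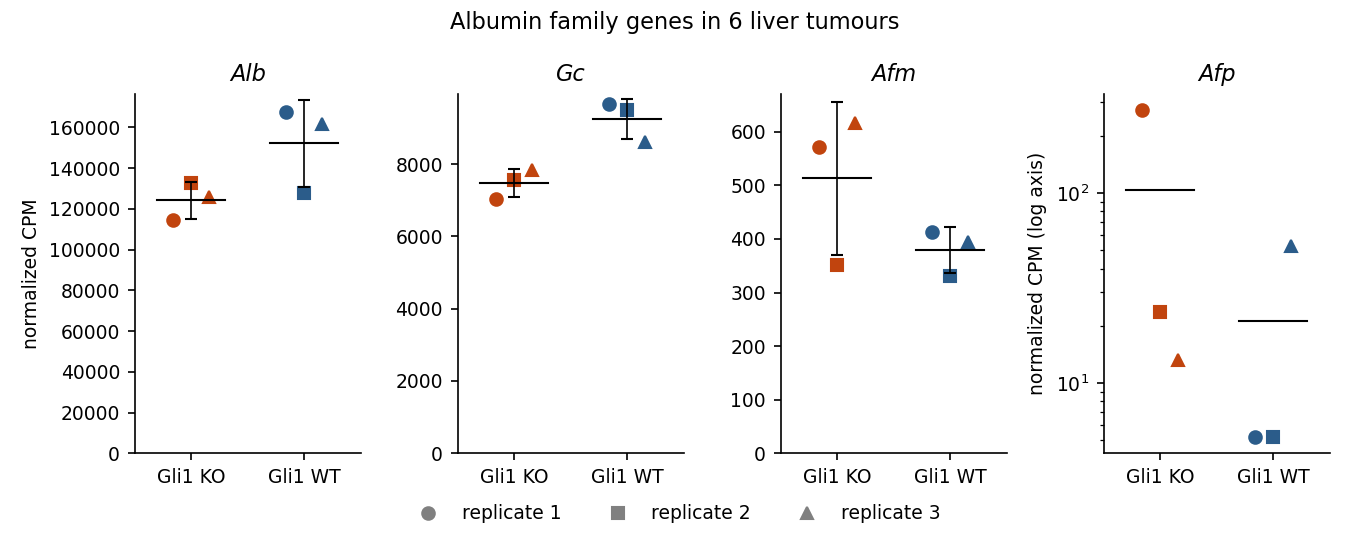
Normalized CPM of Alb, Gc, Afm and Afp in each tumour, with Gli1 KO left of Gli1 WT, points shaped by replicate number, lines for the mean and bars for the SD (n = 3 per group; no bars for Afp, whose axis is logarithmic). The Afp points run from 5.20 to 274 CPM, while the highest Alb value is 1.46 times the lowest.

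Alb, the most abundant transcript, had 114643, 132598 and 125605 CPM in KO replicates 1, 2 and 3, against 167494, 127663 and 161449 CPM in WT replicates 1, 2 and 3. KO replicate 2 lay above WT replicate 2, so the groups overlapped, and WT replicates 1 and 3 were above every KO tumour. Its log2 fold change, KO minus WT, was -0.29 ± 0.31 (SE, 3 tumours per group). With library size alone as the scaling it was -0.12, with a median over all genes of 0.15, so the difference from that median stayed negative. The fold change was -0.23 without KO replicate 1, -0.25 without WT replicate 3 and -0.19 without both.

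Gc, the vitamin D carrier, had 7048, 7559.6 and 7827 CPM in KO replicates 1, 2 and 3, against 9661, 9495 and 8622 CPM in WT. All KO tumours were below all WT tumours, as they were for 3.96% of the genes tested, and 8.11% were free of overlap in either direction. The means were 7478 ± 396 CPM in KO and 9259 ± 558 CPM in WT (SD, n = 3 each). The log2 fold change was -0.31 ± 0.25 (SE), and it was -0.26 without KO replicate 1, -0.36 without WT replicate 3 and -0.31 without both. The groups also did not overlap with RLE or upper-quartile factors, but they overlapped with library size alone (7558 to 8454 CPM in KO and 8011 to 9559.6 CPM in WT) and in the deposited RPKM (3701 to 4130.0 in KO and 3899 to 4429 in WT). Within a genotype Gc varied little, with an SD of 0.08 on the log2 CPM scale, and 1.58% of genes tested had an SD that low or lower.

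Afm, the vitamin E carrier, had 572, 351 and 617 CPM in KO replicates 1, 2 and 3, against 414, 330.3 and 394 CPM in WT. KO replicates 1 and 3 were above every WT tumour, and KO replicate 2 lay within the WT range. The log2 fold change was 0.43 ± 0.27 (SE). It was 0.65 without KO replicate 2 and 0.28 without KO replicate 3. Without KO replicate 1 it was 0.36, without WT replicate 3 it was 0.46, and without both of these it was 0.39. KO replicates 1 and 3 also share a low number in their sample descriptions with WT replicate 1, and with the range of that number as a covariate the value was 0.24.

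Afp, the fetal member, spread over a 52.6-fold range. It had 274, 23.6 and 13.2 CPM in KO replicates 1, 2 and 3, from 28799, 3135 and 1098 reads, against 5.20, 5.22 and 52.8 CPM in WT replicates 1, 2 and 3, from 415, 395 and 4698 reads. KO replicate 1 was highest and WT replicate 3 second, and this WT tumour lay above KO replicates 2 and 3, so the groups overlapped. The highest tumour of a genotype was 20.6 times the lowest in KO and 10.2 times the lowest in WT. The mean was 103 ± 147 CPM in KO and 21.1 ± 27.5 CPM in WT (SD, n = 3 each).

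The Afp log2 fold change of 2.29 ± 1.43 (SE) turned on single tumours. Without KO replicate 1 it was -0.18, and without WT replicate 3 it was 4.31 (FDR 0.503). Without both of these it was 1.83 ± 0.32 (edgeR FDR 0.495), with KO replicates 2 and 3 above WT replicates 1 and 2, a choice of libraries made after the data had been seen. The SD of Afp over all 6 tumours, 2.19 on the log2 CPM scale, ranked 183 among the genes tested, and its SD within genotypes, 2.13, ranked 209. Those of Alb (0.22 and 0.17), Gc (0.18 and 0.08) and Afm (0.37 and 0.34) lay below the middle of the genes tested.

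**Figure D2:**
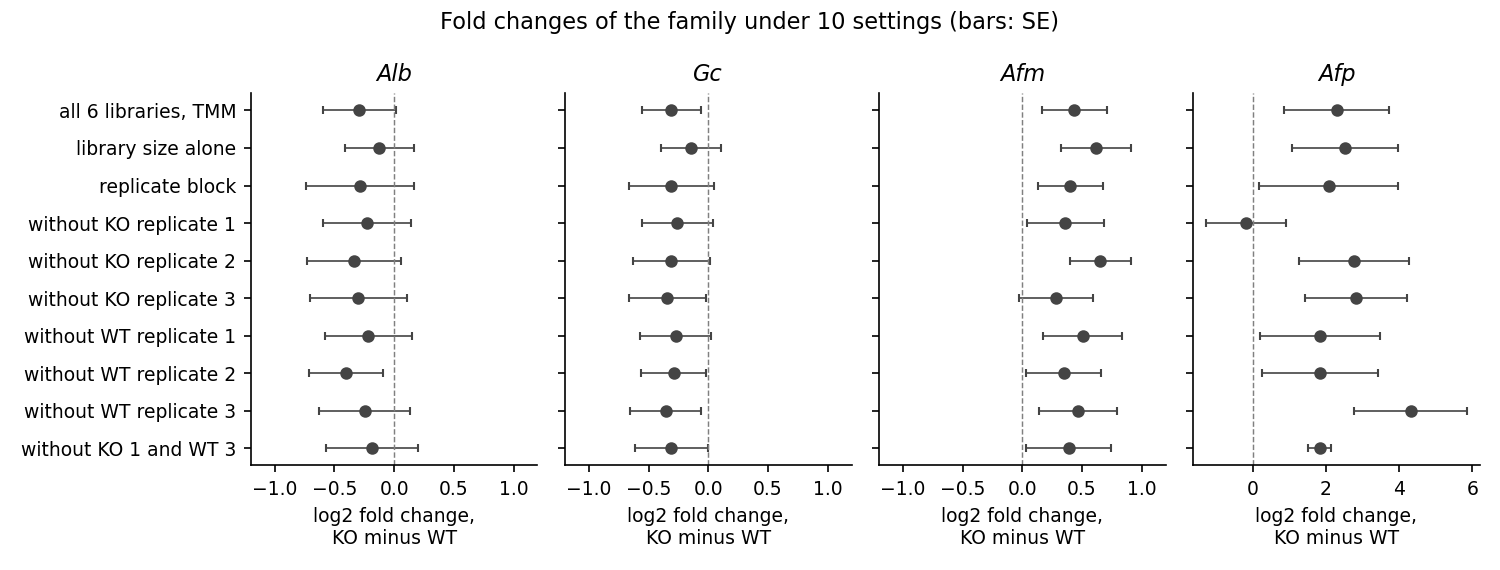
Log2 fold change, KO minus WT, of Alb, Gc, Afm and Afp under 10 settings of edgeR's test (points; bars are SE), with the Afp axis wider than the others. Alb and Gc stay left of 0 and Afm right of it, while Afp sits at -0.18 without KO replicate 1 and at 4.31 without WT replicate 3.

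Ratios within a library do not depend on the scaling between libraries. Afm reads per coding base were 0.335%, 0.178% and 0.330% of those of Alb in KO replicates 1, 2 and 3, against 0.166%, 0.174% and 0.164% in WT. Every KO tumour was above every WT tumour, with KO replicate 2 close to the WT values. Alb was itself lower in KO on average (log2 fold change -0.29), and the Afm groups overlapped in CPM. The share of all genes whose ratio to Alb separated the groups was not computed. The log2 ratio differed by 0.68 (KO minus WT; -8.53 ± 0.52 in KO and -9.22 ± 0.04 in WT, SD, n = 3 each), with p = 0.1 in a two-sided exact permutation test, the smallest that 3 against 3 samples allow.

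Gc lay at like proportions to Alb in both genotypes. It was at 6.93%, 6.43% and 7.03% of Alb in KO replicates 1, 2 and 3, against 6.50%, 8.39% and 6.02% in WT, and the log2 difference was -0.02 (exact permutation p = 0.9, two-sided, n = 3 per group). Afp was at 0.234%, 0.0174% and 0.0103% of Alb in KO replicates 1, 2 and 3, against 0.00304%, 0.00400% and 0.0320% in WT. In KO replicate 1 there was 1 Afp read per coding base for 428 of Alb, and in WT replicate 1 there was 1 for 32901. The log2 difference was 2.25 (exact permutation p = 0.3, two-sided, n = 3 per group) and 0.88 without KO replicate 1, and WT replicate 3 lay above KO replicates 2 and 3. Adjusted over the 3 ratios to Alb by Benjamini-Hochberg, the exact permutation p-values were 0.3 for Afm, 0.45 for Afp and 0.9 for Gc.

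**Figure D3:**
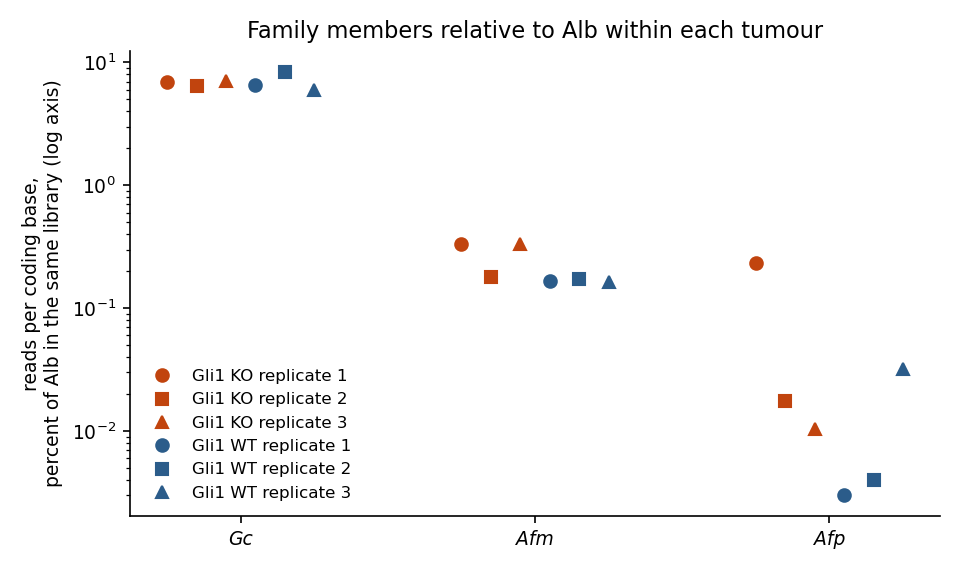
Reads per coding base of Gc, Afm and Afp as a percent of Alb in the same library, on a log axis, with Gli1 KO tumours left of Gli1 WT tumours for each gene. Gc stays between 6.02% and 8.39%, Afm is at 0.335% and 0.330% in KO replicates 1 and 3, and Afp runs from 0.00304% to 0.234%.

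Of 25 genes for repressors and activators of the Alb and Afp promoters, all tested, edgeR called 0, limma voom called 0 and DESeq2 called Nfil3. Nfil3, Foxa1 and Cebpb were the 3 with an unadjusted edgeR p under 0.05, which 3.62% of all genes reached. There were 14 with positive and 11 with negative fold changes, and the median was 0.01. The groups did not overlap for the same 3 genes, where 8.11% of all genes tested were free of overlap.

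Zbtb20, the zinc finger repressor of Afp after birth, had 55.3, 67.4 and 66.0 CPM in KO replicates 1, 2 and 3, against 43.2, 78.7 and 60.1 CPM in WT (log2 fold change 0.05 ± 0.24). Zhx2, the other postnatal repressor, had 11.1, 14.6 and 16.4 CPM in KO, against 11.0, 10.7 and 15.9 CPM in WT (0.16 ± 0.24). In KO replicate 1, the tumour with most Afp, both lay in the lower part of the range of the other tumours. Zhx2 was lower still in WT replicates 1 and 2, the tumours with least Afp. Zbtb20 was lowest in WT replicate 1 and highest in WT replicate 2. WT replicate 3, second in Afp, had 60.1 CPM of Zbtb20 and 15.9 CPM of Zhx2. The part of these repressors in the Afp level was not tested.

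Hnf4a, a nuclear receptor of hepatocytes, had a fold change of -0.34 ± 0.22, and Cebpa, a leucine zipper activator of Alb, of -0.25 ± 0.48. The forkhead factors that open liver chromatin gave 0.43 ± 0.17 for Foxa1, 0.30 ± 0.35 for Foxa2 and 0.11 ± 0.33 for Foxa3. Foxa1 did not overlap, with 17.2, 14.1 and 18.0 CPM in KO, against 11.6, 11.8 and 13.3 CPM in WT.

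Dbp, the activator named for the D site of the Alb promoter, gave 0.13 ± 0.46. Nfil3 encodes a repressor that binds the D box letters TTATGTAA, which were not matched to that D site here. It had 5.79, 7.12 and 8.24 CPM in KO, against 22.1, 22.5 and 31.0 CPM in WT. Its log2 fold change was -1.84 ± 0.22, which did not pass edgeR (FDR 0.530 across all genes).

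Most of the other fetal liver genes tested were highest in 1 of the 2 tumours highest in Afp. So were markers of some other cells. Of 22 oncofetal genes 19 were tested, and edgeR, DESeq2 and limma voom each called 0, with 0 at an unadjusted edgeR p under 0.05. DESeq2 gave no p-value for H19. The median log2 fold change was -0.09, with 9 positive and 10 negative, and no gene was free of overlap. For 12 of the 19, KO replicate 1 and WT replicate 3 were the highest 2 tumours, as for Afp, against 15.0% of all genes tested. Over all genes tested, the highest tumour was KO replicate 1 for 16.04% and WT replicate 3 for 22.22%. The highest tumour was 1 of these 2 for 14 of the 19 oncofetal genes. So it was for 8 of 10 stellate cell and fibroblast, 7 of 7 neutrophil and 6 of 8 cholangiocyte markers tested. It was 1 of these 2 for 0 of 18 hepatocyte and 0 of 8 macrophage markers. The oncofetal and cholangiocyte lists share Sox9, Epcam, Krt19 and Spp1. These counts were made after the values had been seen.

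H19, an imprinted long noncoding RNA of fetal liver, had 1152, 9.52 and 2.30 CPM in KO replicates 1, 2 and 3, against 1.49, 17.1 and 273 CPM in WT. Gpc3, a cell surface proteoglycan used as a marker of liver cancer, had 246, 14.0 and 0.796 CPM in KO, against 1.93, 8.56 and 134 CPM in WT. Both were highest in KO replicate 1 and next highest in WT replicate 3.

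In KO replicate 3 Afp was above WT replicates 1 and 2, whereas Gpc3 was below both and H19 lay between them. Cd24a, a surface glycoprotein of liver progenitors, had 9.97, 2.54 and 1.34 CPM in KO, against 1.82, 1.60 and 13.4 CPM in WT. Igf2, a fetal growth factor, stayed between 0.609 and 2.56 CPM in KO and between 0.413 and 3.81 CPM in WT. Lpl, a lipase that is shut down in liver after birth, ran from 124 to 169 CPM in KO and from 99.5 to 236 CPM in WT. Dlk1, a fetal hepatoblast gene, stayed at or below 0.313 CPM in all 6 tumours. The smallest p in the list were those of Sox4, a transcription factor (1.46 ± 0.76), and Scd2, a fatty acid desaturase (1.54 ± 0.82).

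**Figure D4:**
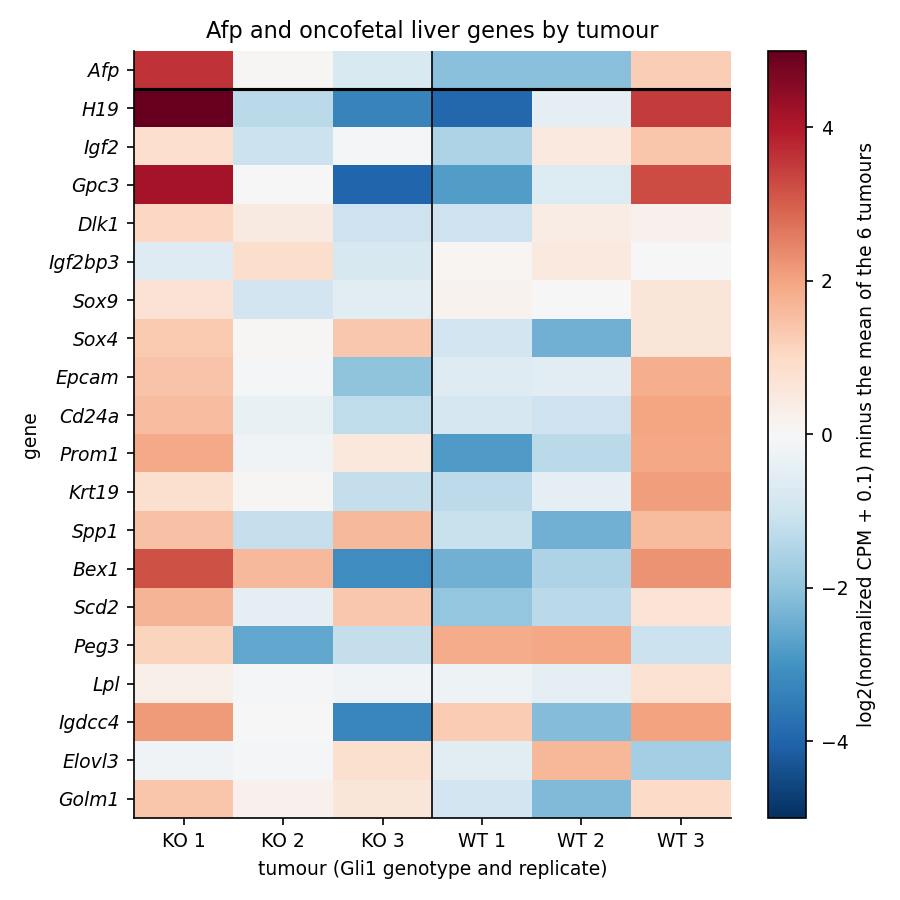
Heat map of log2(normalized CPM + 0.1) for Afp and the 19 oncofetal genes tested, each centred on its mean over the 6 tumours, with Gli1 KO columns left of Gli1 WT columns. Red cells gather in KO replicate 1 and WT replicate 3, the highest 2 tumours for Afp and for 12 of the 19 genes.

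Markers of other cells differed between tumours as well. Cholangiocyte markers, all 8 tested, summed to 92.5 to 487 CPM in KO and 52.5 to 494 CPM in WT, most of it Spp1. In KO replicate 3 Spp1 made up 465 of the 487 CPM, while Krt19 was at 0.229 CPM, Epcam at 0.205 CPM and Cftr at 0. Stellate cell and fibroblast markers, all 10 tested, summed to 310.1 to 739 CPM in KO and 141 to 461 CPM in WT, with none at 0 and the highest sum in KO replicate 1. Endothelial markers, all 10 tested with none at 0, summed to 249 to 302 CPM in KO and 341 to 406 CPM in WT. Proliferation genes, all 10 tested with none at 0, summed to 37.7 to 167 CPM in KO and 28.5 to 74.7 CPM in WT, and KO replicate 3 was highest. Neutrophil markers, 7 of 8 tested and Ly6g at 0 in at least 1 library, summed to 5.17 to 9.90 CPM in KO and 10.4 to 44.6 CPM in WT. Macrophage markers, all 8 tested with none at 0, summed to 58.6 to 102 CPM in KO and 78.5 to 291 CPM in WT. Without overlap and lower in KO were 6 endothelial, 3 neutrophil and 2 macrophage markers, as were 3.96% of all genes tested. Likewise lower were 4 of 8 T and NK cell and 3 of 7 B and plasma cell markers. Higher in KO without overlap were 1 stellate cell and fibroblast marker and 1 proliferation gene. Of all genes tested, 8.11% were free of overlap in either direction. Cholangiocyte, erythroid and pancreatic acinar markers gave 0 either way. EdgeR called 0 in each of these lists, and DESeq2 called the neutrophil gene Retnlg. The part of these cells in the values of the family was not tested.

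No other plasma protein gene of hepatocytes on the list passed a test. Of 30, all tested, 6 had positive and 24 negative fold changes, where 51.8% of all genes tested were negative, and the median was -0.18 against -0.01 over all genes. EdgeR, DESeq2 and limma voom each called 0, 0 had an unadjusted edgeR p under 0.05, and 4 (Apoe, Hp, Fga and Fgg) were without overlap and lower in KO, as were 3.96% of all genes tested. Ttr, the thyroxine and retinol carrier whose promoter drives the transgene, gave 0.05 ± 0.36. The iron carrier Trf gave -0.06 ± 0.32, the retinol carrier Rbp4 -0.01 ± 0.25 and the lipoprotein Apoa1 -0.08 ± 0.37. The smallest p were those of the fibrinogen chains Fgg (-0.73 ± 0.33) and Fga (-0.83 ± 0.41).

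No gene that handles the vitamins carried by Gc and Afm passed a test. Of 13 genes of vitamin D and vitamin E handling 10 were tested, with 2 positive, 8 negative and 0 called by edgeR, DESeq2 or limma voom, or at an unadjusted edgeR p under 0.05. Cyp2r1, the liver 25-hydroxylase of vitamin D, had 6.80, 7.12 and 11.3 CPM in KO, against 6.33, 12.0 and 7.93 CPM in WT. Cyp24a1, which breaks vitamin D down, had 0 reads among 565176751, which allows up to 0.00531 CPM. Lrp2, the kidney receptor that takes up the Gc protein, stayed at or below 0.0793 CPM. Ttpa, the hepatocyte protein that loads vitamin E onto lipoproteins, had 245, 572 and 371 CPM in KO, against 476, 723 and 349 CPM in WT. The smallest p were those of Cyp27a1, a sterol hydroxylase (-1.07 ± 0.65), and Pltp, the phospholipid transfer protein (-0.47 ± 0.37).

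Of 19 genes for albumin recycling, uptake and secretion 17 were tested, and edgeR, DESeq2 and limma voom called 0. Among them 1 gene, B2m, had an unadjusted edgeR p under 0.05, which 3.62% of all genes tested reached. Fcgrt, the heavy chain of the receptor that saves albumin from breakdown, had 66.1, 76.4 and 83.0 CPM in KO, against 94.8, 95.0 and 66.0 CPM in WT (-0.18 ± 0.20). Its partner B2m had 1162, 1128 and 1155 CPM in KO, against 1770.1, 1544 and 1619 CPM in WT (-0.52 ± 0.21), without overlap, as were 8.11% of all genes tested in either direction. B2m also serves MHC class I. Mia3, which exports cargo from the endoplasmic reticulum, gave -0.37 ± 0.23.

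The genes around the family had fold changes of either sign. Within 500 kb of the span from Alb to Afm, 15 of 20 genes were tested, with Alb, Afp and Afm counted among them. EdgeR called 0 of these, and 1 did not overlap, against 8.11% of all genes tested. That gene was Cxcl1, a neutrophil chemokine, at -2.94 ± 0.43 (FDR 0.797). Next to Afm and 7.67 kb after it, the row 5830473C10Rik, which RefSeq names Albfm1, had 36.1, 44.6 and 30.9 CPM in KO, against 95.1, 42.6 and 29.9 CPM in WT (-0.59 ± 0.43). WT replicate 1, low in Afp, was the highest there. Ankrd17 before Alb gave -0.07 ± 0.25 and Rassf6 after Albfm1 gave 0.10 ± 0.29. Within 500 kb of Gc 3 of 6 genes were tested, with Gc counted among them, and edgeR called 0. The 1 gene without overlap there was Gc itself, against 8.11% of all genes tested. The bicarbonate transporter Slc4a4 gave -0.02 ± 0.25 and the protease Adamts3 -0.61 ± 0.56.

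**Figure D5:**
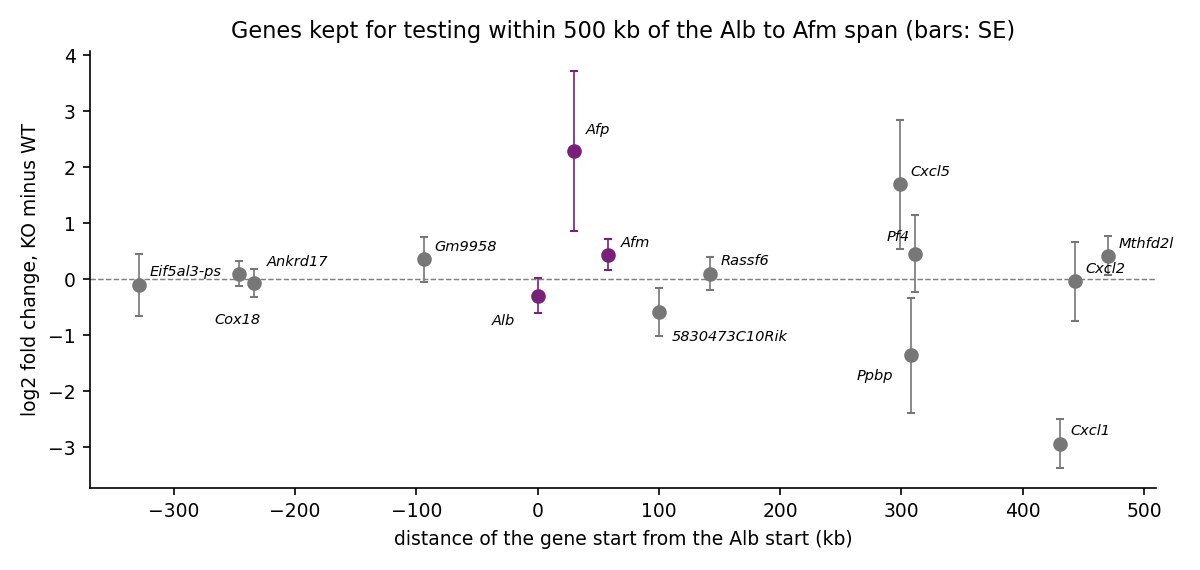
Log2 fold change, KO minus WT, of the genes tested within 500 kb of the Alb to Afm span, plotted by the distance of each gene start from that of Alb (points; bars are SE; family members in purple). Afp is at 2.29 with a wide bar, between Alb at -0.29 and Afm at 0.43, and Cxcl1 at -2.94 lies at the far right.

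No member was among the 5 genes most like another member over the 6 tumours. Likeness was the root mean square difference in log2 CPM after centring each gene, over 6 libraries, with small values for like patterns. Closest to Afp was Cacna1c, a calcium channel subunit, at 0.18, followed by Aldh1l2, Cdkn2a, Lingo1 and Runx2os2 at 0.42 to 0.59. Runx2os2 is annotated as antisense, so without strand its reads cannot be told from those of its partner. Cacna1c had 23.8, 2.13 and 1.00 CPM in KO replicates 1, 2 and 3, against 0.463, 0.581 and 5.25 CPM in WT. Cdkn2a, a tumour suppressor locus, had 6.01, 0.692 and 0.627 CPM in KO, against 0.200, 0.119 and 1.05 CPM in WT.

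Closest to Alb were Map1lc3b, Rhpn2, Insl3, Os9 and Trmt5 at 0.05 to 0.08. Gc came at rank 233 from Alb, among 18359 genes tested, with a difference of 0.15. Closest to Gc were Eny2, Bin3, Rab4b, Gm21983 and Gm12404 at 0.04 to 0.06, of which Rab4b and Gm21983 overlap on the chromosome and may share reads. Closest to Afm were Arhgap24, Tm7sf3, Pold2, Commd10 and Pidd1 at 0.06 to 0.08. From Afp the other members differed by 1.87 for Afm, 2.08 for Alb and 2.13 for Gc. These values lie near the SD of Afp itself, 2.19, so they mainly restate its spread.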

How the data were processed

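The authors deposited 1 table with raw read counts and RPKM per gene for each of the 6 libraries. The tools listed, with no roles, per the submitters' processing notes are bcl2fastq, HTSeq and TopHat2 2.0.6, and the builds listed are hg19 and GRCh37, which are human. The identifiers are mouse Ensembl ones, and of 42462 shared with GENCODE M21 84.2% had the same start. No source used here gives the strand setting. EdgeR 4.0.16 (R 4.3.3) was run on the deposited counts (filterByExpr, TMM, robust quasi-likelihood test, two-sided, Benjamini-Hochberg over 18359 genes, FDR 0.05), and the test was tried on simulated data. SE is the size of the log2 fold change divided by the root of the F statistic. The RPKM deposited by the authors were used for levels per length. Log2 CPM used a prior count of 2. Alternatives were other factors, filters, DESeq2 1.42.0, limma 3.58.1 (voom, and trend on log2(RPKM + 0.1)), covariates and leaving out libraries. The members and gene lists were chosen with earlier results of these data known. Genes named are the members, a set chosen from each list by role, the 2 of smallest p in each list described, the 5 most like each member and chromosomal neighbours. Cebpb, Apoe, Hp, Cxcl1, Slc4a4, Adamts3, Ankrd17, Rassf6 and the hormone carriers were picked after their values were seen. Ero1b had no match in the table, and a gene of the regulator list is not reported here. The limit given for a count of 0 covers counting error only.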

Additional observations from a re-analysis of the deposited data

How the results depend on the processing

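The fold changes of Alb, Gc and Afm kept their sign under all 21 alternatives and did not pass the threshold under any. They ranged from -0.40 to -0.07 for Alb, from -0.36 to -0.10 for Gc and from 0.24 to 0.65 for Afm, with FDR from 0.674 to 1. Afp kept its sign in 20 of 21, from 1.83 to 4.31, and was -0.18 without KO replicate 1; its leave-one-out values thus ran from -0.18 to 4.31. The cause was not tested. The count of genes past FDR 0.05 was 0 under every alternative other than DESeq2 with 62, also at FDR 0.1. The Gc to Alb difference of -0.02 ran from -0.12 to 0.12 when single libraries were left out, and was positive without KO replicate 2 (0.02) or WT replicate 2 (0.12). The Afm to Alb difference ran from 0.53 to 0.99 and the Afp to Alb difference from 0.88 to 3.32 over the same settings. With library size alone the median over all genes moved by over 0.1, to 0.15, and with the deposited RPKM to 0.19.

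The labels give no pairing, so the replicate numbers were not taken as pairs. Deviations of same-numbered tumours from their group means correlated at -0.29, 0.18 and -0.34 for numbers 1, 2 and 3. Those of KO replicate 1 and WT replicate 3 correlated at 0.51. With 3 tumours per group the deviations depend on each other, so this check cannot exclude pairing. With the replicate number as a block, fold changes were -0.29 for Alb, -0.31 for Gc, 0.40 for Afm and 2.07 for Afp, and 0 genes passed. The paired differences of the ratios to Alb were 0.68 for Afm, 2.25 for Afp and -0.02 for Gc, with an exact sign-flip test.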

Other observations

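Serpina6 and Serpina7, which encode hormone carriers of plasma made by hepatocytes, were singled out after their values were seen. Serpina6, the corticosteroid-binding globulin, had 1818, 163 and 924 CPM in KO replicates 1, 2 and 3, against 614, 376 and 793 CPM in WT replicates 1, 2 and 3 (log2 fold change 0.70 ± 0.78). Serpina7, the thyroxine-binding globulin, had 84.9, 26.4 and 164 CPM in KO, against 27.1, 12.0 and 64.3 CPM in WT (1.41 ± 0.79). Both were highest in KO replicates 1 and 3, as was Afm, and neither passed edgeR (FDR 1.00 each). Ttr, which also carries thyroxine, ran from 2323 to 4954 CPM in KO and from 2620.3 to 3972 CPM in WT. Serpina6 and Serpina7 belong to a family of related serpin genes.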
